A study of Mus musculus with 16 samples.

Results

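The Slit, Robo and netrin genes encode a family of secreted axon guidance cues and their receptors. They were followed here as 10 genes chosen by name out of 49671 genes in the count tables: the ligands *Slit1*, *Slit2*, *Slit3* and *Ntn1* and the receptors *Robo1*, *Robo2*, *Robo3*, *Dcc*, *Unc5c* and *Neo1*. All 10 were in both tables. The question was which cells of the dorsal root ganglion (DRG) preparations carry ligands and which carry receptors, and how the levels in proprioceptors differ between embryo and newborn. Slits are large secreted proteins that repel growing axons through Robo receptors on the growth cone. Netrin-1, encoded by *Ntn1*, attracts axons through DCC and repels them when an UNC5 receptor takes part, and neogenin, encoded by *Neo1*, is a close relative of DCC. In sensory ganglia these cues act on axons that grow towards muscle and skin and on the branches that enter the spinal cord.

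Single tdTomato-positive cells of mouse DRG were sequenced with CEL-Seq2, which counts the 3' ends of transcripts as unique molecular identifiers (UMIs), in libraries of 96 wells. The e15.5 samples were 10 libraries of sorted cells of PvtdTom embryos, which carry a BAC with tdTomato driven by the parvalbumin promoter. The p1 samples were 6 libraries of newborns, for which the labels name Trpv1Cre; PvFlp; Ai65 and PvCre; Ai14 mice together, so the reporter is switched on by recombinases under *Pvalb* control, alone or with *Trpv1*. The labels say that these cells were sorted, whereas the study's methods say that they were picked by hand. The line, segmental level and animal of each library are not given in the labels, and age cannot be told apart from mouse line, way of picking cells and depth. Wells with at least 10000 UMIs were kept, 871 of 960 at e15.5 and 369 of 576 at p1. A library held 3701900 to 9299431 UMIs at e15.5 and 386517 to 8814472 at p1, where library 3 kept only 12 wells.

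The labels call all samples proprioceptive sensory neurons, but the marker genes did not bear this out in every well. At e15.5, 297 wells (34.1%) had the proprioceptor markers *Pvalb*, *Runx3*, *Etv1* and *Ntrk3*, and 380 wells (43.6%) were connective tissue by *Col1a1*, *Col1a2*, *Col3a1*, *Dcn*, *Lum* and *Pdgfra*. *Col1a1*, a chain of fibrillar collagen, stood at 10048 CPM (counts of UMIs scaled to 1000000 in the summed wells) in the connective tissue wells and at 26.4 CPM in the proprioceptor wells. *Etv1*, a transcription factor of proprioceptors, stood at 51.9 and 2008 CPM. A further 40 wells were other sensory neurons with *Avil* and *Isl1*, 57 had neuron markers without *Avil* and *Isl1*, 50 held glial transcripts and 47 stayed unclassified. At p1, 320 of 369 wells (86.7%) were proprioceptors and only 2 were connective tissue, so ligands of connective tissue could be read at e15.5 alone. The limits that define the classes were set after the marker levels had been seen. Within a factor of the square root of 2 of the proprioceptor limit lay 15 of 394 neuron wells at e15.5 and 13 of 327 at p1.

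UMIs were summed per library and class, and levels are given as CPM of these sums over libraries with at least 5 wells of the class. Because 3' ends are counted, CPM does not grow with transcript length. How fully the transcripts of each gene were captured was not measured, so different genes are ranked by their CPM or UMIs only. The summed connective tissue markers in proprioceptor wells amounted to 0.327% of their level in connective tissue wells. The summed proprioceptor markers in connective tissue wells amounted to 4.06% of their level in proprioceptor wells. The levels of ligands and receptors below are set beside these shares. Whether the shares come from RNA of other cells or from low expression in the wells themselves was not tested, and the class limits also bound them.

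*Slit3* and *Ntn1* were ligands of the connective tissue wells. *Slit3* (ENSMUSG00000056427, chr11:35121224-35708507 on GRCm38) stood at 8.37 CPM in the lowest of 9 libraries, at a median of 30.2 and at 48.0 in the highest, but at 0 to 1.66 CPM in the proprioceptor wells of the 10 e15.5 libraries (median 0.357). The groups did not overlap, and connective tissue was higher in 9 of 9 libraries that held both classes. How many of all genes separate the 2 classes in this way was not counted, here or for the members below. Of connective tissue wells 43.7% (95% exact binomial interval 38.6 to 48.8) had a *Slit3* UMI and of proprioceptor wells 4.04% (2.10 to 6.95), although the median proprioceptor well was deeper, with 119236 against 28259 UMIs. These intervals cover counting error only. The *Slit3* level of proprioceptor wells was 1.80% of that of connective tissue wells, above the share of the connective tissue markers but resting on 19 UMIs.

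*Ntn1* (ENSMUSG00000020902, chr11:68209364-68400823) gave no UMI at all in 297 proprioceptor wells at e15.5, which hold 35320742 UMIs. In connective tissue it stood at 6.76 to 23.1 CPM (median 9.60) with 145 UMIs in 85 of 380 wells. Against the 3 UMIs over the whole group that a count of 0 allows, this was at least 144-fold higher in connective tissue. At p1 only 3 *Ntn1* UMIs were found in 320 proprioceptor wells. Netrin-1 transcript was thus detected in connective tissue wells of the same preparations but not, at this depth, in the e15.5 proprioceptors. Where these connective tissue cells lay in the tissue was not measured.

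*Slit2* showed the opposite distribution, with more transcript in the proprioceptors than in the connective tissue. This did not hold for other neuron wells at e15.5. Pooled over wells, *Slit2* was at 14.3 CPM in other sensory neurons and 67.1 CPM in wells with neuron markers without *Avil* and *Isl1*. Connective tissue wells pooled had 69.6 CPM. *Slit2* (ENSMUSG00000031558, chr5:47983138-48307733) stood at 122 to 215 CPM in e15.5 proprioceptor wells (median 148) and at 29.5 to 301 CPM in connective tissue wells (median 69.8). It had the highest CPM of the 4 ligands in both classes. Connective tissue was lower in 8 of 9 libraries. The exception was library 10, where only 5 connective tissue wells gave 36 UMIs, and without it the connective tissue values reached no higher than 112 CPM. *Slit1* (ENSMUSG00000025020, chr19:41600257-41743665) was nearly restricted to neurons, at 20.3 to 41.5 CPM in proprioceptor wells (median 30.0) and 0 to 8.37 CPM in connective tissue wells (median 0.926). Its level in connective tissue was 3.34% of that in proprioceptors and rested on 12 UMIs. The summed proprioceptor markers had 4.06%, but single markers differed. In connective tissue and proprioceptor wells *Etv1* was at 51.9 and 2008 CPM and *Runx3* at 26.1 and 281 CPM.

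The promoters of *Slit2*, a member higher in proprioceptors, and *Neo1*, a member higher in connective tissue, are shown as the 250 bases before the RefSeq start site on GRCm38.p6, 5′ to 3′ on the gene's strand. The *Neo1* window ends just before the start of its GENCODE gene, and the last few bases of the *Slit2* window lie inside its GENCODE gene. Capitals would mark TGTGGT, the core letters of RUNX sites, and CCGGAA, the core of ETS sites, searched on both strands because *Runx3* and *Etv1* define the proprioceptor class. Of the 10 genes, windows of 7 were searched. Only that of *Unc5c* held a match, 1 of the RUNX letters starting 147 bases before the start site. That window lies inside the GENCODE gene of *Unc5c* and is not shown. The *Robo1* window also lies inside its GENCODE gene, and the *Slit3* and *Robo3* windows overlap theirs. The *Robo2* window (chr16:75447294-75447543, minus strand) lies far upstream of its GENCODE gene, which ends at 74411825. The 7 windows are thus not alike in their place relative to the GENCODE start. Of all 32851 promoters, 14.0% held the RUNX letters and 12.0% the ETS letters.
*Slit2*, chr5:47982905-47983154, plus strand: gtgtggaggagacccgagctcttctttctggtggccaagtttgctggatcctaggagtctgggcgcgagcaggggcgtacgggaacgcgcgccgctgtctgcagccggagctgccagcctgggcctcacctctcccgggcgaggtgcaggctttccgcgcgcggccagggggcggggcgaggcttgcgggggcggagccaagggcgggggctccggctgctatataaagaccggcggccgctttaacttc
*Neo1*, chr9:59036442-59036691, minus strand: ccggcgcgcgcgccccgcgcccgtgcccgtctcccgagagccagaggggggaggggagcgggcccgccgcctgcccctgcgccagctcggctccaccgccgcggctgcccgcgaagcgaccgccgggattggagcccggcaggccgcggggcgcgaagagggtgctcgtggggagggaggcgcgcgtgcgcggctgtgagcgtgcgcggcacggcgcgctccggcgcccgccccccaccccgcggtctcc
Neither window shown held a match of either kind, so no letter is in capitals. GC content was 69.6% for *Slit2* and 83.2% for *Neo1*, against a median of 52.4% over all promoters, and the windows held 25 and 45 CpG against a median of 6.

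Among the receptors, *Robo1* and *Unc5c* were found in both classes at overlapping levels. *Robo1* (ENSMUSG00000022883, chr16:72308306-73046095), a principal Slit receptor, stood at 51.8 to 83.4 CPM in e15.5 proprioceptor wells (median 61.4) and at 33.5 to 121 CPM in connective tissue wells (median 59.0). *Unc5c* (ENSMUSG00000059921, chr3:141465216-141834924), a netrin receptor, stood at 111 to 164 CPM (median 129) and at 25 to 192 CPM (median 99.8). It had the highest CPM of the 6 receptors in proprioceptors. The connective tissue libraries overlapped the proprioceptor libraries on both sides for both genes. Connective tissue was lower in 5 of 9 libraries for *Robo1* and in 6 of 9 for *Unc5c*.

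*Robo2* and *Neo1* were higher in connective tissue, and *Dcc* in proprioceptors. *Robo2* (ENSMUSG00000052516, chr16:73891839-74411825), the other main Slit receptor, stood at 6.47 to 34.3 CPM in proprioceptor wells (median 17.2) and at 25.1 to 100 CPM in connective tissue (median 48.1), higher in 8 of 9 libraries, with some overlap between the lowest connective tissue and the highest proprioceptor libraries. *Neo1* (ENSMUSG00000032340, chr9:58874687-59036441) stood at 27.7 to 52.8 CPM (median 44.4) and at 59.0 to 113 CPM (median 75.3), with no overlap. *Dcc* (ENSMUSG00000060534) stood at 3.76 to 10.1 CPM in proprioceptors (median 5.98), whereas 6 of 9 connective tissue libraries gave 0 and the highest, library 10, gave 8.37 from a single UMI. The level of *Dcc* in connective tissue was 13.0% of that in proprioceptors, resting on 10 UMIs. *Robo3* (ENSMUSG00000032128, chr9:37415669-37433246), a divergent Robo of commissural axons, was at 0.255 CPM in proprioceptors and 0.256 CPM in connective tissue.

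**Figure D1:**
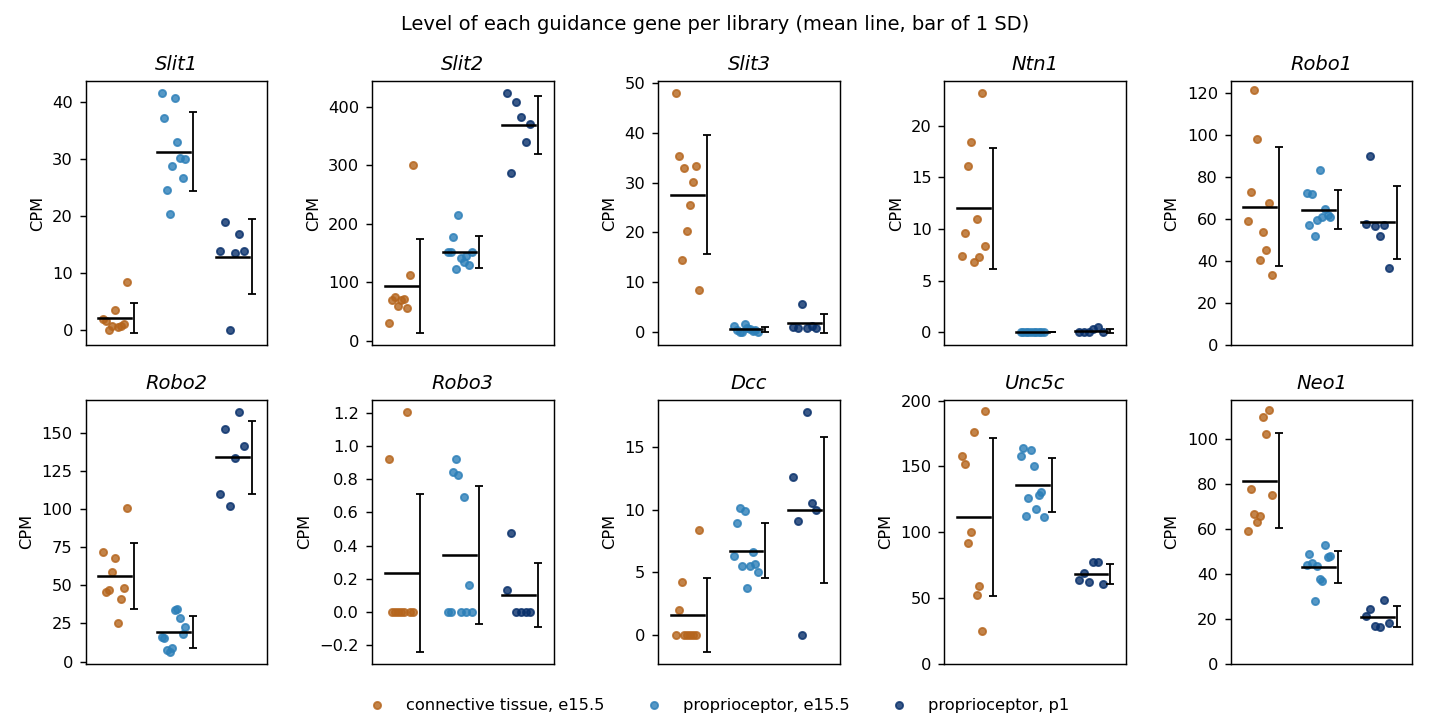
Level of each gene in CPM (vertical axis, a scale of its own per gene) in summed wells of 1 library and class, for connective tissue at e15.5 (9 libraries), proprioceptors at e15.5 (10 libraries) and proprioceptors at p1 (6 libraries); lines are means and bars 1 SD. *Slit3* and *Ntn1* points lie above 0 mainly in connective tissue, *Slit2* and *Robo2* are highest in p1 proprioceptors, and the connective tissue point of *Slit2* at 301 CPM is library 10.

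The classes were compared in one fit with edgeR's quasi-likelihood test, Benjamini-Hochberg adjustment over all tested genes and library as a block. It held the e15.5 sums of proprioceptors, connective tissue, other sensory neurons and wells with glial transcripts. Wells with neuron markers without *Avil* and *Isl1* and unclassified wells were left out. Connective tissue and proprioceptors differed in 77.6% of 13742 tested genes at an adjusted p of 0.05, 41% higher in connective tissue and 36.6% lower. Of the 9 tested members 7 were called, 4 higher and 3 lower, and *Robo3* did not pass the filter on low counts. Nothing is read from this count, because *Slit3*, *Ntn1*, *Slit1* and *Dcc* had hardly any UMIs in the lower class and entered the test through the class where they were high. These genes are therefore given by their pooled levels, with no test. Over the summed wells, *Slit3* was 55.9-fold higher in connective tissue (35.2 to 93.9, counting error only), *Slit1* 29.9-fold higher in proprioceptors (17.0 to 58.0) and *Dcc* 7.67-fold higher in proprioceptors (4.10 to 16.2). Higher in connective tissue were *Robo2* by 1.49 ± 0.34 (log2 fold change ± SE, edgeR adjusted p = 0.00049) and *Neo1* by 1.08 ± 0.12 (adjusted p = 8.9e-08). For *Slit2* the log2 fold change was -0.84 ± 0.20 (edgeR adjusted p = 0.00076). Without library 10 the *Slit2* difference was -1.15. *Robo1* at 0.17 ± 0.19 (95% interval -0.22 to 0.56) and *Unc5c* at -0.31 ± 0.25 (-0.83 to 0.21) did not pass, and *Unc5c* passed in other fits, with -0.77 among sums of at least 10 wells.

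Of 61 further genes of the pathway (other receptors and ligands, cofactors, intracellular partners), 53 were tested. Of these, 24 were higher in connective tissue and 23 lower. The called share was 88.7%, against 77.6% of all tested genes, and the median log2 fold change 0.24, against 0.10. Nothing is read from these counts either. Genes with few UMIs in 1 class, such as *Sdc4* with 13 in proprioceptors, could pass the filter through the other class. *Dock1*, an activator of Rac, was at 79.8 CPM in connective tissue and 1.56 CPM in proprioceptors, *Sdc4*, a heparan sulfate proteoglycan, at 12.3 and 0.368 CPM, and *Flrt1*, a membrane protein of the FLRT family, at 19.2 and 1.25 CPM. On the neuronal side, *Dscam*, an adhesion molecule that binds netrin-1, was at 1.80 and 62.8 CPM, and the ubiquitin ligases *Trim67* and *Trim9* were at 7.36 and 272 CPM and at 7.53 and 110 CPM.

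Connective tissue wells were split into cycling wells, wells with a *Tnmd* UMI (tenomodulin, a tendon marker) and the rest. *Slit3* had a median of 33 CPM over 5 libraries in *Tnmd*-positive wells, 26.1 over 7 libraries in cycling wells and 30.5 over 8 libraries in the others. *Slit2* stood at 137, 169, 111, 78.7 and 82.5 CPM in the *Tnmd*-positive wells of libraries 2, 3, 4, 6 and 7. In the other wells of the same libraries it stood at 57.1, 45.7, 60.3, 67.3 and 42.0 CPM. All 5 libraries thus had more *Slit2* in the *Tnmd*-positive wells. *Slit2* was the only 1 of 6 tested members called in this comparison (log2 fold change 1.00 ± 0.21, edgeR adjusted p = 0.041), where 0.653% of 9347 genes were called (0.246% higher and 0.407% lower), and the call was lost in 9 of 15 other fits, among them those without library 1, 2, 3, 4, 7 or 8 (edgeR adjusted p from 0.058 to 0.18). *Neo1* was also higher in 5 of 5 libraries but was not called (0.52 ± 0.24, edgeR adjusted p = 0.42). The one gene of the pathway list called was *Gpc1*, a glypican, at 62.9 CPM in *Tnmd*-positive and 144 CPM in other wells.

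Between e15.5 and p1 the levels in proprioceptors moved in both directions. The test over 10 e15.5 and 6 p1 libraries called 62.8% of 13349 genes, 30.9% higher and 31.9% lower at p1 at an adjusted p of 0.05. Of the 7 tested members 6 were called, 3 in each direction, with a median of 0.11 over members and -0.02 over all genes. With so large a background, a call alone sets no member apart. *Slit3*, *Ntn1* and *Robo3* did not pass the filter on low counts.

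*Robo2* had the largest change of the members. It stood at 6.47 to 34.3 CPM at e15.5 and at 110, 152, 102, 134, 164 and 142 CPM in p1 libraries 1 to 6 (mean ± SD 134 ± 24.1, n = 6, against 19.3 ± 10.4, n = 10). Every p1 library lay above every e15.5 library. The share of all genes without overlap between the ages was not counted, here or for the members below. The log2 fold change was 3.02 ± 0.24 (edgeR adjusted p = 1.8e-09) and lay between 2.88 and 3.52 in 28 other fits. The ratio of *Robo2* to *Robo1* UMIs was 0.106 to 0.562 in the 10 e15.5 libraries and 1.69 to 3.85 in the 6 p1 libraries. *Robo1* thus had more UMIs than *Robo2* in all e15.5 libraries and fewer in all p1 libraries. *Robo1* itself was at 36.7 to 90 CPM at p1 (median 56.9) and did not pass the test (0.11 ± 0.15, 95% interval -0.19 to 0.42).

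The ligand *Slit2* rose as well. Its p1 values were 424, 287, 408, 383, 341 and 370 CPM, all above the e15.5 maximum of 215 CPM (369 ± 49.4, n = 6, against 152 ± 26.9, n = 10). The log2 fold change was 1.49 ± 0.11 (edgeR adjusted p = 3.2e-10). *Slit1* fell from 31.2 ± 6.87 to 12.8 ± 6.61 CPM (SD), with p1 values of 13.8, 18.8, 0, 13.4, 16.7 and 13.9 CPM, where the 0 belongs to the shallow library 3. Its log2 fold change was -0.82 ± 0.17 (edgeR adjusted p = 0.00033) and -0.79 without that library. The ratio of *Slit2* to *Slit1* UMIs was 3.46 to 7.48 at e15.5 and 15.2 to 30.7 in the 5 p1 libraries with a *Slit1* UMI.

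Of the netrin receptors among the members, *Unc5c* and *Neo1* were lower at p1 and *Dcc* was higher. *Unc5c* stood at 60.5 to 77.4 CPM at p1, below every e15.5 library, with a log2 fold change of -0.74 ± 0.11 (edgeR adjusted p = 5.4e-06). When every well was first thinned to 10000 UMIs its difference was -0.25 (edgeR adjusted p = 0.26). The median proprioceptor well held 119236 UMIs at e15.5 and 55518.5 at p1. *Neo1* stood at 16.3 to 28.2 CPM at p1 (median 19.6), where the highest p1 library lay just above the lowest e15.5 library (-0.78 ± 0.14, edgeR adjusted p = 7.0e-05). *Dcc* had p1 values of 12.6, 9.10, 0, 17.8, 10.5 and 9.94 CPM, which overlapped the e15.5 range. Its log2 fold change was 1.00 ± 0.23 (edgeR adjusted p = 0.00098), and with the replicate number as a block over libraries 1 to 6 it was 0.82 with an adjusted p of 0.055. Beside these changes, the summed glia markers had a median of 44.4 CPM at e15.5 and 158 CPM at p1 in proprioceptor wells, and the summed connective tissue markers 142 and 94.7 CPM; their part in the differences was not tested.

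**Figure D2:**
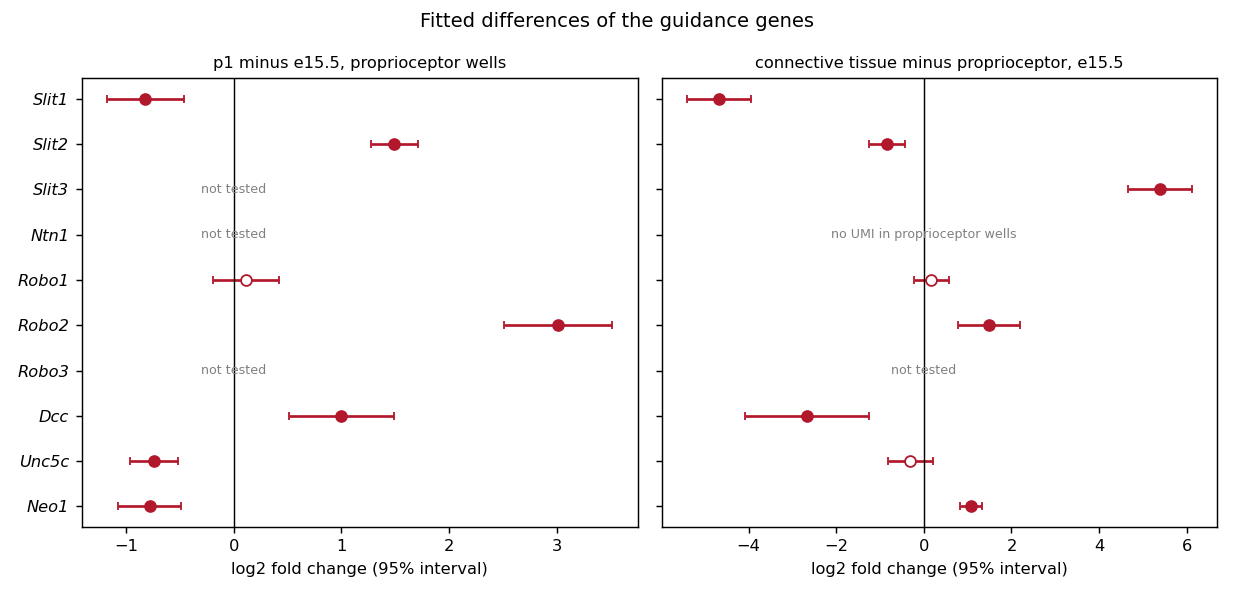
Log2 fold changes (horizontal axis) with 95% intervals from edgeR for each gene, for p1 against e15.5 proprioceptors on the left and connective tissue against proprioceptors at e15.5 on the right; filled points passed an adjusted p of 0.05, which on the right is no support for *Slit1*, *Slit3* and *Dcc* since they entered the test through their higher class. *Robo2* and *Slit2* lie farthest to the right on the left side, and *Slit3* and *Slit1* lie at opposite ends on the right side, where *Ntn1* has no value because proprioceptors had no UMI.

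In the pathway list, 51 of 61 genes were tested between the ages, 12 were higher at p1 and 22 lower. The called share was 66.7%, against 62.8% of all tested genes, and the median -0.15, against -0.02. *Rgma*, a ligand of neogenin, was at 16.0 CPM at e15.5 and 55.2 CPM at p1 (2.03 ± 0.14), *Myo10*, an unconventional myosin of filopodia, at 19.4 and 43.7 CPM, and *Unc5a*, another netrin receptor, at 5.72 and 14.0 CPM. Lower at p1 were *Draxin*, a secreted repellent that binds DCC and netrin-1, at 54.2 and 5.65 CPM (-2.89 ± 0.26), the adaptor *Nck2* at 23.6 and 5.81 CPM, and *Flrt2*, an UNC5 ligand, at 41.2 and 15.4 CPM. These 6 genes passed edgeR's test at adjusted p values from 3.5e-10 to 0.0022.

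At equal depth the shares of wells for *Slit2*, *Robo2* and *Slit3* had the same order as their levels. After thinning to 10000 UMIs, a *Slit2* UMI was found in 64.0% of e15.5 proprioceptor wells, 91.9% of p1 proprioceptor wells and 33.9% of connective tissue wells. For *Robo2* these shares were 12.5%, 70.0% and 29.7%, and for *Slit3* 0.673%, 1.25% and 21.3%. Not every member kept its order. *Slit1* was found in 16.2% and 15.9% of proprioceptor wells at the 2 ages in spite of its lower CPM at p1. *Unc5c* was found in 44.5% of connective tissue and 46.9% of p1 proprioceptor wells, at medians of 99.8 and 66.4 CPM. Without thinning 80.8% and 55.9% of the proprioceptor wells had a *Slit1* UMI.

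**Figure D3:**
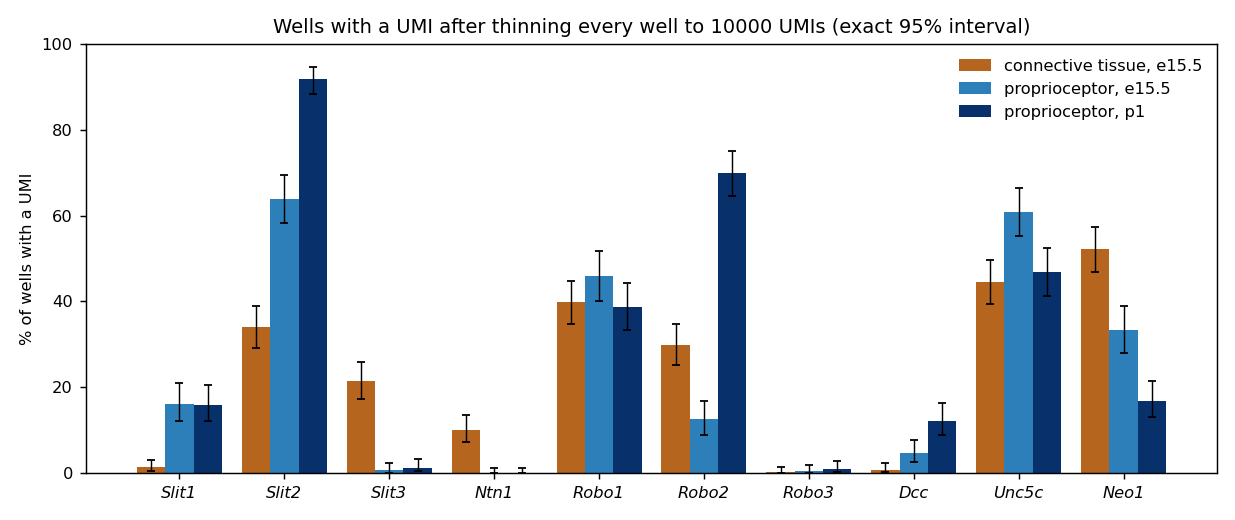
Share of wells with at least 1 UMI of each gene (vertical axis, percent) after every well was thinned to 10000 UMIs, for 380 connective tissue wells and 297 proprioceptor wells at e15.5 and 320 proprioceptor wells at p1; bars are exact 95% binomial intervals, which cover counting error only. *Robo2* rises from 12.5% to 70.0% of proprioceptor wells, and *Slit3* reaches 21.3% in connective tissue wells alone.

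Wells with UMIs of both ligand and receptor were counted, but not compared with the share that separate detection of each gene would give. A UMI of *Slit2* together with one of *Robo1* or *Robo2* was found in 261 of 297 e15.5 proprioceptor wells (87.9%) and 306 of 320 at p1 (95.6%), and after thinning in 35.7% and 74.1%. In connective tissue this was 184 of 380 wells (48.4%), or 20.8% after thinning. After thinning, *Slit2* without either Robo was found in 28.3% of e15.5 and 17.8% of p1 proprioceptor wells and 13.2% of connective tissue wells. For *Robo1* or *Robo2* without *Slit2* these shares were 15.8%, 7.5% and 37.9%, so the joint shares alone set no class apart. For the netrin receptors, wells with *Unc5c* and no *Dcc* UMI made up after thinning 57.2% of e15.5 and 39.7% of p1 proprioceptor wells, while both were found in 3.70% and 7.19% and *Dcc* alone in 1.01% and 5%. UMIs were spread unevenly over the wells of a class. The following shares use raw counts, without scaling or thinning, and the part of well depth and counting noise in them was not tested. At e15.5 the 24 proprioceptor wells richest in *Robo2* (8.08%) held as many of its UMIs as all others together, and 1 well held 71 of 715 UMIs. At p1 this took 53 of 320 wells (16.6%). For *Slit2* it took 69 wells (23.2%) at e15.5 and 65 (20.3%) at p1.

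Other sensory neurons differed from proprioceptors in several members, but only 3 libraries held at least 5 such wells. In libraries 1, 3 and 9 *Slit2* was at 20.7, 14.1 and 24.4 CPM in other sensory neurons and at 151, 178 and 130 CPM in proprioceptors. *Robo1* was at 15, 29.6 and 15.9 CPM against 72.5, 71.7 and 61.8 CPM. *Robo2* went the other way, at 150, 69.8 and 28.1 CPM against 16.3, 7.59 and 18.0 CPM. All 3 libraries moved in the same direction for each of these genes. *Slit1* was at 17.3, 9.87 and 12.2 CPM against 41.5, 24.5 and 26.5 CPM. *Dcc* had no UMI in these 26 wells, at least 6.80-fold below proprioceptors by the 3 UMIs that a count of 0 allows over the group, and 3 UMIs in 1 well of library 10. Of 13742 genes 10.6% were called, 4.93% higher and 5.64% lower, and 5 of the 9 tested members among them. *Dcc* was one of these, but with no UMI in the other sensory neurons it entered the test through proprioceptors alone. The other calls were *Robo2* (1.93 ± 0.51, edgeR adjusted p = 0.016), *Robo1* (-1.93 ± 0.35, adjusted p = 0.00091), *Slit2* (-2.88 ± 0.39, adjusted p = 5.6e-05) and *Slit1* (-1.32 ± 0.39, adjusted p = 0.033). Without library 1 or library 3 only *Robo1* and *Slit2* were called, and *Slit1* was also lost without library 9. *Unc5c* (-0.95 ± 0.42) and *Neo1* (0.48 ± 0.19) were not called, *Ntn1* had no UMI in either class and *Slit3* none in the other sensory neurons. Mechanoreceptor and nociceptor markers summed to 635 to 2463 and 289 to 1077 CPM in the 3 other sensory neuron sums, so more than one kind of neuron was pooled. The proprioceptor sums are shared with the comparison against connective tissue.

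Of the pathway list 53 genes were tested there, 5 were higher and 5 lower, with a median of 0.04 against 0.006 over all genes. The called share was 18.9%, against 10.6% of all tested genes. Here too, genes with few UMIs in 1 class could pass the filter through the other. *Ntng1*, a membrane-anchored netrin, was at 63.4 CPM in other sensory neurons and 1.30 CPM in proprioceptors, *Flrt1* at 34.8 and 1.25 CPM and the protease *Adam10* at 107 and 44.6 CPM. *Rgma* was at 2.58 and 16.0 CPM and *Trim9* at 36.7 and 110 CPM, while *Unc5a* rested on 1 UMI in the other sensory neurons.

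Within proprioceptors, *Tox* and *Gabrg1* are genes by which the study tells neurons of different muscle targets apart. Wells with a UMI of *Tox* and none of *Gabrg1* (Tox-only) were set against wells with the reverse (Gabrg1-only), and a missing UMI does not show absence of the transcript. At e15.5 *Robo1* was at 35.2, 73.1, 48.6 and 48.3 CPM in Tox-only sums of libraries 7, 8, 9 and 10 and at 56.7, 80.4, 95.3 and 84.7 CPM in their Gabrg1-only sums. *Slit2* was at 168, 184, 172 and 153 CPM and at 78.3, 92.4, 111 and 130 CPM. All 4 libraries with both pools thus had less *Robo1* and more *Slit2* in Tox-only wells. Where library is a block, the difference between pools rests on these 4 libraries. The fit of 8 Tox-only and 4 Gabrg1-only sums, with library as a block and 3 residual degrees of freedom, called 4.18% of 11001 genes (2.16% higher and 2.02% lower) and 2 of 6 tested members, *Robo1* (-0.68 ± 0.16, edgeR adjusted p = 0.020) and *Slit2* (0.64 ± 0.14, adjusted p = 0.015). Neither call held without library 9 (edgeR adjusted p = 0.15 and 0.054), that of *Robo1* was also lost without library 10 (0.20) and that of *Slit2* without library 8 (0.17). *Neo1*, higher in Tox-only wells in 4 of 4 libraries, was not called (0.54 ± 0.20, edgeR adjusted p = 0.20).

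At p1 the same pools had *Robo1* at 57.7, 47.1 and 49.3 CPM in Tox-only and 79.5, 81.0 and 87.8 CPM in Gabrg1-only sums of libraries 1, 4 and 5. *Slit2* was at 459, 462 and 334 CPM and at 435, 224 and 329 CPM. Direction was the same as at e15.5 in 3 of 3 libraries for both genes, which were the members called at e15.5. Other members did not all keep theirs. *Slit1* was higher in Tox-only sums in 3 of 4 libraries at e15.5 and lower in 3 of 3 at p1. *Neo1* was higher in 4 of 4 at e15.5 and lower in 2 of 3 at p1. *Unc5c* was higher in 2 of 4 at e15.5 and in 3 of 3 at p1. With 2 residual degrees of freedom and 0.836% of 10410 genes called (0.307% higher and 0.528% lower), edgeR called none of 7 tested members; 3 had an unadjusted p under 0.05, and DESeq2 also called 0. *Robo1* had -0.78 ± 0.20 (edgeR adjusted p = 0.11; 0.033 without library 1) and *Slit2* 0.17 ± 0.16 (adjusted p = 0.81). The difference between the ages was not called for any of 7 members by edgeR or DESeq2, with 0.448% of 11827 genes called and 2 members under an unadjusted p of 0.05, *Neo1* at -1.35 ± 0.39 (edgeR adjusted p = 0.18) and *Slit2* at -0.50 ± 0.22 (adjusted p = 0.48). *Robo1* was at -0.11 ± 0.26 (95% interval -0.64 to 0.43).

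**Figure D4:**
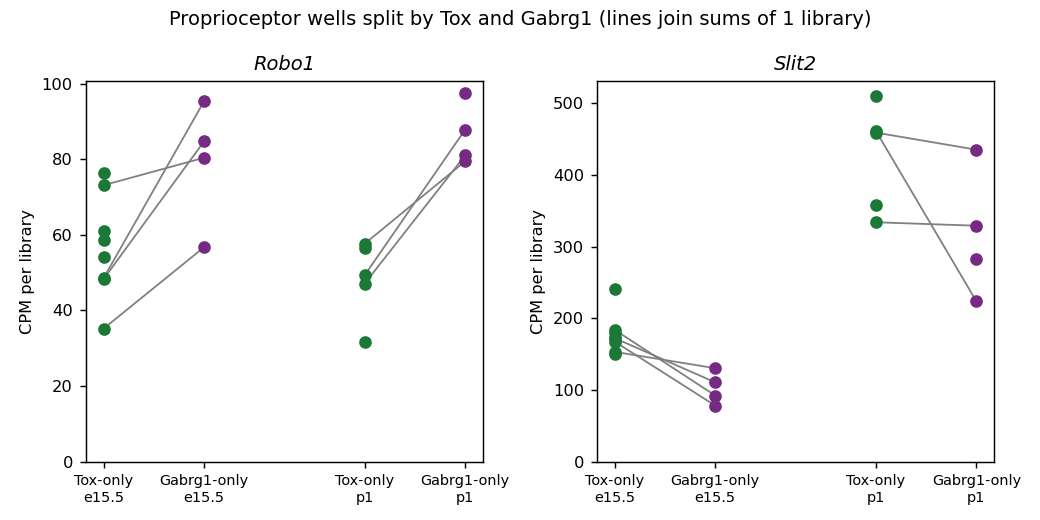
Level of *Robo1* and *Slit2* in CPM (vertical axes from 0) in Tox-only and Gabrg1-only proprioceptor sums of at least 5 wells at e15.5 (8 and 4 libraries) and p1 (5 and 4 libraries); each point is 1 library and lines join the sums of 1 library. *Robo1* lines climb and *Slit2* lines descend from Tox-only to Gabrg1-only at both ages, with the largest *Slit2* drop in p1 library 4 (462 to 224 CPM).

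In the pathway list, 3 of 48 tested genes were higher and 2 lower in Tox-only wells at e15.5, a called share of 10.4% against 4.18% over all genes. *Nell2*, a secreted ligand of ROBO3, was at 105 CPM in Tox-only and 32.8 CPM in Gabrg1-only sums (1.52 ± 0.19, edgeR adjusted p = 0.00024), *Rgma* at 22.0 and 7.69 CPM and *Flrt2* at 54.7 and 19.0 CPM. The netrin receptor *Unc5b* was at 35.7 and 86.4 CPM and *Enah*, an actin regulator, at 264 and 347 CPM. At p1 *Nell2* was the one gene of 46 called, at 43.2 and 16.0 CPM (1.82 ± 0.33, edgeR adjusted p = 0.018).

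The genes whose level over 36 class sums most resembled a member were found by Pearson correlation of log2(CPM + 1) among 14683 genes; the sums share libraries and classes, so r is a description. For *Slit2*, the leading ligand of connective tissue wells, they were *Cygb* (r = 0.91), *Pkp4* (0.88), *Wfs1* (0.88), *Gm43426* (0.88) and *Gm42537* (0.87). *Gm43426* and *Gm42537* lie inside the *Slit2* gene on its strand, with 1878 and 910 UMIs in all wells, and their reads cannot be told apart from intronic *Slit2* RNA. For *Unc5c*, the leading receptor of proprioceptors, they were *Rnf185* (0.76), *Slc7a6* (0.73), *2700062C07Rik* (0.72), *Borcs8* (0.70) and *Zfp930* (0.70). *Unc5c* overlaps an antisense gene, *Gm15688*, with 134 UMIs, and the sources do not state whether counting used strand.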

How the data were processed

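Counts were made by the authors: CEL-Seq2 reads were demultiplexed, mapped and counted as UMIs per gene and well with scruff, and the raw counts were deposited for every well. The submitters' processing notes name mm10 and GRCm38. Symbols and places come from GENCODE M21 on GRCm38 (49412 of 49671 IDs matched). The members, gene lists and tests were chosen with earlier results of these data known. Groups follow the age in the labels.

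Wells with at least 10000 UMIs were classed by summed CPM of marker lists: connective tissue at 3000 or more with neuron markers below 1000; neuron wells at 1000 or more with connective tissue below 3000, of which glia markers at 1000 or more gave wells with glial transcripts, proprioceptor markers at 1000 or more gave proprioceptors, and *Avil* and *Isl1* at 300 or more together gave other sensory neurons. Connective tissue wells with cycling markers at 300 or more were called cycling. No doublet caller was run. Classes matched clusters found without members and markers (scran version 1.30.0, scater version 1.30.1, igraph version 2.1.4) in 88.4% of wells at e15.5; at p1 every cluster was called proprioceptor, so the clusters say nothing about the other classes there. No 2 kept wells had identical counts, and libraries differed by more than sampling noise (smallest chi-square per degree of freedom 3.88).

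Counts summed per library and class (at least 5 wells) were tested in R (version 4.3.3) with the quasi-likelihood test of edgeR (version 4.0.16) after filterByExpr and TMM scaling, and p values were adjusted by Benjamini-Hochberg across every gene that passed the filter, with calls at 0.05. The procedure was tested on simulated data. P values of the age comparison measure the spread between libraries. Where library was a block, they measure how the differences between sums of 1 library vary from library to library. The labels do not say which libraries came from separate animals. Class sums of 1 library share a preparation and were blocked by library (median r of their deviations 0.31 over 23 pairs, lowest -0.0045). Libraries of the 2 ages that share a number were not treated as pairs (r from -0.29 to 0.26 over 6 pairs). Alternatives included DESeq2 (version 1.42.0), other filters, scalings, minimum depths and leaving out each library; 3 were chosen after seeing the data (no demand on *Avil* and *Isl1*, proprioceptor markers at 2000 CPM, glial wells kept). Thinning drew 10000 UMIs per well. Levels came from pandas (version 2.3.3), SciPy (version 1.17.1) and NumPy (version 2.4.6) under Python (version 3.11.15), and figures from Matplotlib (version 3.10.9). Named genes were the 10 members, the 3 called genes of the pathway list with the largest change in each direction, and the 5 genes nearest in pattern to the leading receptor and ligand.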

Additional observations from a re-analysis of the deposited data

Results flagged for a closer look

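*Robo3* stood out in wells that no comparison used. In the 57 e15.5 wells with neuron markers but without *Avil* and *Isl1*, it reached 214 CPM (245 UMIs), against 0.255 CPM in proprioceptor wells. The UMIs lay in 12 of the 57 wells, up to 107 in 1 well. Of 359 *Robo3* UMIs in all kept e15.5 wells, 8 wells had at least 5 each, 6 of them in this class with 235 UMIs, 1 among other sensory neurons with 39 UMIs and 1 unclassified with 61 UMIs. The 57 wells came from 7 libraries at a median of 17940 UMIs, and their leading genes were *Lamp5*, *Sall3*, *Pax2*, *Grm5* and *Neurod2*; *Gad1* was at 590 CPM. *Robo2* was higher there than in any other class, at 296 CPM.

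In 48 groups of 4 to 10 libraries, 9 libraries lay far from the others in one gene; chance flags about 1 group in 20. In connective tissue, library 10, with 5 wells, was high for *Slit2* (301 CPM, next 112), *Dcc* (8.37 CPM) and *Slit1* (8.37 CPM), the latter pair from 1 UMI each. In p1 proprioceptors, the shallow library 3 was low for *Slit1* (0 CPM) and high for *Slit3* (5.67 CPM, 1 UMI), and library 2 was high for *Robo3* (0.479 CPM, 3 UMIs). In wells with glial transcripts, *Slit1* was high in p1 library 4 (28.3 CPM, 10 UMIs), *Ntn1* in p1 library 2 (2.24 CPM, 1 UMI) and *Robo3* in e15.5 library 5 (1.16 CPM, 1 UMI).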

How the results depend on the processing

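Over 129 other fits, the count of members called stayed within 1.5 times of the reported one in 106, and of 924 values of single members 856 kept direction and call, 29 lost the call, 11 gained it and 28 changed sign, none of them past the threshold. After thinning, 3 of the 5 members still tested were called between the ages and 3 of 5 between connective tissue and proprioceptors, with 7095 and 8313 genes tested. *Slit1* and *Dcc* in the first and *Slit1*, *Slit3*, *Dcc* and *Ntn1* in the second no longer passed the filter, and of the members still tested *Unc5c* between the ages alone lost its call. The counts were 2 for other sensory neurons among sums of at least 10 wells, 0 for *Tnmd*-positive wells at a minimum of 20000 UMIs, among sums of at least 10 wells and with no replicate block, 1 for the e15.5 pools with DESeq2 and among sums of at least 10 wells, 1 for the p1 pools with no filter or no replicate block, and 1 for the difference between the ages with no filter; the cause was not tested. For the p1 pools, sums of at least 10 wells could not be fitted. Between the ages, the replicate block over libraries 1 to 6 took the call from *Dcc* alone (0.82, edgeR adjusted p = 0.055). Leaving out each library gave 2 to 5 members called for other sensory neurons, 0 to 1 for *Tnmd*-positive wells, 0 to 2 for the e15.5 pools and 0 to 1 for the p1 pools.

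Signs that changed were *Robo1* between classes among sums of at least 10 wells (-0.27); for *Tnmd*-positive wells *Slit3* (0.033) and *Unc5c* (-0.072) at a minimum of 20000 UMIs and *Unc5c* (-0.77) among sums of at least 10 wells; for the e15.5 pools *Slit1* (-0.13) among sums of at least 10 wells, and *Robo2* (-0.29) and *Unc5c* (0.031) with no replicate block; for the p1 pools *Slit2* (-0.019) at a minimum of 20000 UMIs; and for the difference between the ages *Dcc* (-0.10) with no replicate block. Leaving out each library changed the sign of *Robo1* between the ages (-0.089 to 0.24) and between classes (-0.088 to 0.23), of *Robo2* (-0.37 to 0.31), *Slit3* (-0.39 to 0.22) and *Unc5c* (-6.6e-05 to 0.56) for *Tnmd*-positive wells, of *Robo2* (-0.11 to 0.44), *Slit1* (-0.0010 to 0.37) and *Unc5c* (-0.36 to 0.12) for the e15.5 pools, of *Dcc* (-0.16 to 1.08) and *Slit2* (-0.017 to 0.32) for the p1 pools, and of *Dcc* (-0.29 to 0.99) and *Robo1* (-0.30 to 0.088) for the difference between the ages.

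Over all genes, calls moved by more than 1.5 times in several fits: between the ages 8382 became 3918 after thinning, and between connective tissue and proprioceptors 10659 became 5978. For other sensory neurons 1452 became 441 (sums of at least 10 wells), 2261 (classes from clusters), 3246 (no demand on *Avil* and *Isl1*) and 883 or 805 (without library 1 or 3). For *Tnmd*-positive wells 61 became 502 with no filter, 36 at a minimum of 20000 UMIs, 3 among sums of at least 10 wells, 8 with no replicate block and 17 or 21 without library 2 or 3. For the e15.5 pools 460 became 879 with no filter, 209 with DESeq2 and 190, 290 or 301 without library 8, 9 or 10. For the p1 pools 87 became 287 with no filter, 41 with DESeq2, 34 at a minimum of 20000 UMIs and 322, 36 or 55 without library 1, 4 or 5. For the difference 53 became 253 with no filter, 34 at a minimum of 20000 UMIs, 179 among sums of at least 10 wells, 22 with no replicate block, 82 or 27 without e15.5 library 7 or 9 and 94, 17 or 29 without p1 library 1, 4 or 5. Few wells per sum and 2 or 3 residual degrees of freedom limit the pool comparisons, and members under about 10 CPM rest on few UMIs per library.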

Other observations

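Wells that held both neuron and glia markers were not compared with another class, though 4 sums of them entered the fit of the e15.5 classes. At p1, 34 such wells had *Slit2* at 337 CPM and *Robo2* at 106 CPM, and 50 such wells at e15.5 had 102 and 37.7 CPM. *Slit3*, at 3.39 CPM in the e15.5 wells, and *Ntn1*, at 1.21 CPM, were below connective tissue (30.0 and 12.4 CPM pooled over its 380 wells). The 6 other sensory neuron wells at p1 had *Robo2* at 98.5 CPM and *Slit2* at 21.6 CPM, with no library holding 5 of them.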
